A study of Mus musculus with 8 samples.

Results

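The 10 transcription factors described here steer CD8 T cells between naive, effector, memory and exhausted states, and their transcripts were measured in naive CD8 T cells from the spleens of Brca1 heterozygous and wild type mice. They are Tbx21, Eomes, Id2, Id3, Zeb1, Zeb2, Prdm1, Bcl6, Tox and Batf, taken by symbol, and all 10 were found among the 22609 genes of the deposited table. Both groups were C57BL/6 mice 3 months of age, sampled as splenic naive CD8 T cells without stimulation or treatment: 4 libraries carried the Brca1 Het genotype (Het 31, 53, 56 and 139) and 4 were wild type (WT 45, 54, 57 and 65). How the Brca1 allele was made, whether all cells carry it, and sex, litter and isolation day are not given in the labels. The labels do not tie the libraries to different mice. The p-values therefore rest on library to library variation only, part of which may be technical.

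A naive CD8 T cell becomes an effector or a memory cell through pairs of factors that pull against each other or overlap. The T-box factors T-bet (Tbx21) and Eomes switch on cytotoxic and cytokine genes, with T-bet linked to short-lived effector cells and Eomes to memory. Id2 favours effector cells and Id3 memory precursors, both by binding E proteins and keeping them off DNA, while ZEB2 and BLIMP-1 (Prdm1) promote terminal effector cells and ZEB1 and BCL6 memory. TOX is needed for the chromatin state of exhausted T cells, and BATF, which binds DNA with a JUN protein and often with IRF4, acts in early effector differentiation.

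Tbx21 and Prdm1 stand at the centre of the comparisons, having the largest differences between the genotypes. Zeb2 and Bcl6 carry matches to motifs named below, Bcl6 to the motif of BCL6 itself and of STAT factors. For both, the window shown was picked because it holds matches, and their other listed windows hold none. The upstream sequences of these 4 factors are therefore shown. Each is the 250 bases before a RefSeq start in GRCm38.p6, 5′ to 3′ on the gene's strand. The motifs searched on both strands were CAGGTG (the E-box of ZEB and E proteins), GGTGTGA (T-box), TGANTCA (the AP-1 site of BATF with JUN), TTCCNNGAA (BCL6 and STAT) and GAAAGTG (BLIMP-1), and capitals mark every match. No 2 matches overlap in these 4 windows.
Tbx21, chr11:97115332-97115581, minus strand: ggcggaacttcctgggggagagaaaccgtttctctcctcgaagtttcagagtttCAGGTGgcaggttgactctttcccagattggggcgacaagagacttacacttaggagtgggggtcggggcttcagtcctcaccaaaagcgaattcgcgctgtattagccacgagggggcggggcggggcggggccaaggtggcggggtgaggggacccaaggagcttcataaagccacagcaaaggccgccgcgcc
Prdm1, chr10:44458749-44458998, minus strand: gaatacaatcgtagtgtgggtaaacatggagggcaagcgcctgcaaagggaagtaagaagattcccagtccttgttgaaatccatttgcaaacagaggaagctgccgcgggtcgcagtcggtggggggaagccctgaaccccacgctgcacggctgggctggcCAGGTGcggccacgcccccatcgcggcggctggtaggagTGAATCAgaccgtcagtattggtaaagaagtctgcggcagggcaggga
Bcl6, chr16:23981284-23981533, minus strand: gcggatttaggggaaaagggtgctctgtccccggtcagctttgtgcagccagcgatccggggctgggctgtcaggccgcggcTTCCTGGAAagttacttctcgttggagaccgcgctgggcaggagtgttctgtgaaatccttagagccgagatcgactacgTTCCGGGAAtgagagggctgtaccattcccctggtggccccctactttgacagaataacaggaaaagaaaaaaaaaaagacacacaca
Zeb2, chr2:45110278-45110527, minus strand: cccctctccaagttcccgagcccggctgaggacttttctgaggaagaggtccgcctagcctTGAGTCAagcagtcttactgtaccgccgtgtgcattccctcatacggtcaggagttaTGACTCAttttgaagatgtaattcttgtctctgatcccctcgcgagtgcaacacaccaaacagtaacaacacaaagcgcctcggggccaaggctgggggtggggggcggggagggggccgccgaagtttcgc

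The Tbx21 window holds 1 E-box, 196 bases before the start. The Prdm1 window holds an E-box 87 bases and an AP-1 match 48 bases before the start, and by the GENCODE M21 gene model it lies inside the longest span of the gene, at an inner start. The Bcl6 window, also at an inner start, holds 2 matches to the BCL6 and STAT motif, 168 and 88 bases before it. BCL6 is known to repress its own gene, but this motif does not tell a BCL6 site from a STAT site. The Zeb2 window, the innermost of 4 listed starts, holds 2 AP-1 matches, 189 and 132 bases before the start. Windows were counted for 8 of the 10 factors, 12 windows in all. Tox had no listed window, and Zeb1 was left out of the count. A gene was counted when any of its windows held the motif, so counts by gene can run above shares by window. The E-box occurred in 2 of these 8 genes and in 17.2% of all 32851 windows, and AP-1 in 2 of 8 and 6.75% of windows. The BCL6 and STAT motif occurred in 1 of 8 genes and 4.06% of windows. T-box and BLIMP-1 matches were in 0 of the 8, against 3.33% and 4.01% of all windows. These are matches of letters and not measured sites.

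None of the 10 factors passed the test between Het and WT cells. All 10 had a mean of at least 10 normalized read counts over the 8 libraries and were tested, with 5 higher and 5 lower in Het on the log2 scale and a median log2 difference of 0.02, against 0.01 over all 12048 tested genes. The limma call rate over all tested genes was 0.515% (62 genes, all lower in Het) at an adjusted p of 0.05. By unadjusted p under 0.05, 1 of the 10 passed (Prdm1), where 8.19% of all tested genes did, split into 3.79% higher and 4.40% lower in Het. The genotypes overlapped in all 10 factors. Of all tested genes, 2.13% had every Het library above every WT library and 2.86% the reverse. In the fit to all 8 libraries, the 95% interval of the log2 difference lay between -1 and 1 for all 10. A change of 2-fold in either direction thus fell outside it, with Prdm1 closest at an upper end of 0.94. This bound was not drawn for the other settings, and Prdm1 was at 0.62 (SE 0.19) without Het 56. Like the p-values, the intervals rest on library to library variation only.

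**Figure D1:**
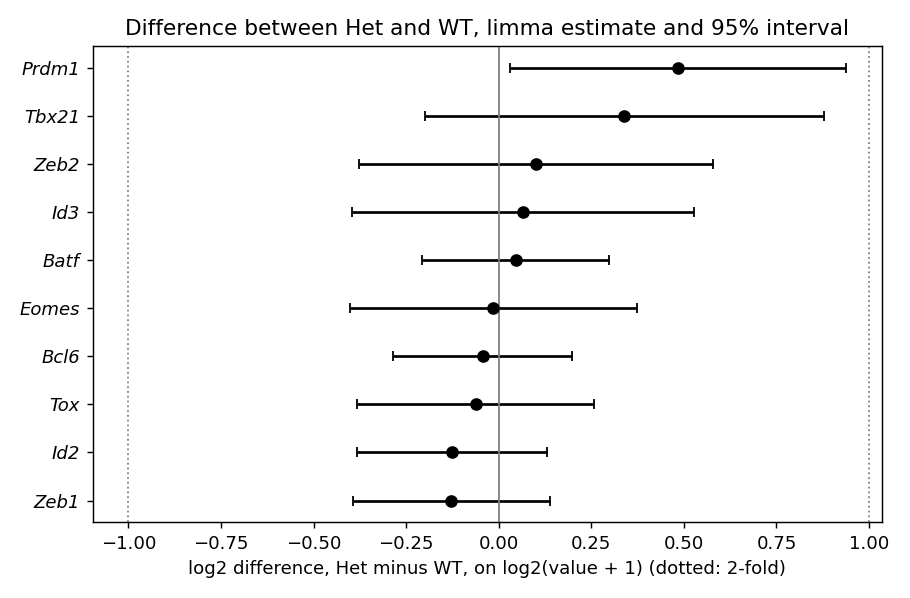
Log2 difference between Het and WT for each of the 10 factors, ordered by size (limma estimate and 95% interval on the log2(value + 1) scale, n = 4 libraries each; the solid line marks 0 and the dotted lines 2-fold). Prdm1, at 0.48, is the only factor whose interval leaves out 0, and every interval stays inside the dotted lines.

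The libraries held transcripts of CD8 T cells, which alone do not show the naive state or the purity of the cells. The CD8 coreceptor gene Cd8a had between 45657.9 and 50265.2 normalized read counts in Het and between 40591 and 46876.7 in WT libraries, and Tcf7, which keeps T cells naive or memory-like, between 50265.2 and 64435.2 in Het and between 52482.1 and 70062.9 in WT. The deposited values had the same distribution at levels of about 100 and above and a total near 27489670 in every library, so totals say nothing about depth. Low values differed, the smallest above 0 being 0.9 to 1.9 in Het and 0.2 to 0.3 in WT libraries. Genes above 0 numbered 13863 to 14656 in Het and 15358 to 15569 in WT, and the number of different values up to 100, which estimates the reads behind a value of 100, was 74 to 121 in Het and 106 to 128 in WT libraries. Most listed nerve and fibroblast genes were lower in Het. Both lists were chosen with earlier results of these data known, so the counts below are a description and not a test. Of 12 nerve and neuron genes tested, 11 were lower and 1 was higher in Het (median log2 difference -5.40). By limma adjusted p, 6 were called lower and 0 higher (3 called without WT 54, without WT 57 or without WT 65). All 11 fibroblast and matrix genes tested were lower (median -2.49), 1 of them called. By unadjusted limma p under 0.05, 11 nerve and 9 fibroblast genes were lower. Over all tested genes, 52.0% were higher in Het, 0.515% were called lower, and 4.40% were lower at that unadjusted p. The fibroblast genes summed to 398.1 to 1247 in Het and 1416 to 7030 in WT, and the nerve genes to 9549 to 10617 in Het and 11226 to 15941 in WT. In Het the nerve sum came mostly from genes of the list that were not called. The 6 called genes were low there, the highest being Mtap1b at a mean of 23.6, against 1379 in WT. The nerve sum therefore does not show the size of the difference in the called genes. Of the nerve list, 8 genes were listed at 0 in at least 1 library, and of the fibroblast list 1, Pdgfra. The part of these transcripts in the levels of the factors was not tested.

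Tbx21, the T-box factor of short-lived effector cells, was higher in Het on average but varied about as much within each genotype. It had 389.1, 230.6, 203.1 and 243.2 normalized read counts in Het 31, 53, 56 and 139, against 161, 173.2, 229.9 and 269.4 in WT 45, 54, 57 and 65. Het 31 was above every other library, while the other 3 Het libraries lay among the WT values. The means were 266.5 ± 83.4 in Het and 208 ± 50.6 in WT (SD, n = 4 each). The log2 difference was 0.34 (95% interval -0.20 to 0.88, SE 0.24, exact permutation p = 0.229, 2-sided, adjusted p = 0.719 by limma). Without Het 31 it was 0.14, and without WT 45 and 54 it was 0.05.

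Eomes, the T-box factor of memory cells and of NK cells, had close means in the genotypes and a wider range in Het. It had 1488.9, 980, 1503.3 and 1879.6 normalized read counts in Het 31, 53, 56 and 139, against 1414.8, 1495.1, 1609.7 and 1262.2 in WT 45, 54, 57 and 65. Het 53 was the lowest and Het 139 the highest of the 8 libraries. The means were 1463 ± 369 in Het and 1445 ± 146 in WT (SD, n = 4 each), and the log2 difference was -0.01 (95% interval -0.40 to 0.37, SE 0.18, exact permutation p = 0.943, adjusted p = 0.982 by limma). The mean of the values was thus slightly higher and the mean of the log2 values slightly lower in Het. Without Het 53 the log2 difference was 0.16.

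The balance of the T-box pair differed between libraries of the same genotype. The log2 ratio of Tbx21 to Eomes was -1.93, -2.08, -2.88 and -2.95 in Het 31, 53, 56 and 139, against -3.13, -3.10, -2.80 and -2.22 in WT 45, 54, 57 and 65. Het 31 had the highest ratio through its high Tbx21, and Het 53 came next through its low Eomes. The means were -2.46 ± 0.53 in Het and -2.81 ± 0.42 in WT, a difference of 0.35 that is smaller than the SD of either genotype. The difference in ratio was 0.18 without Het 31, 0.23 without Het 53 and 0.55 without WT 65.

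**Figure D2:**
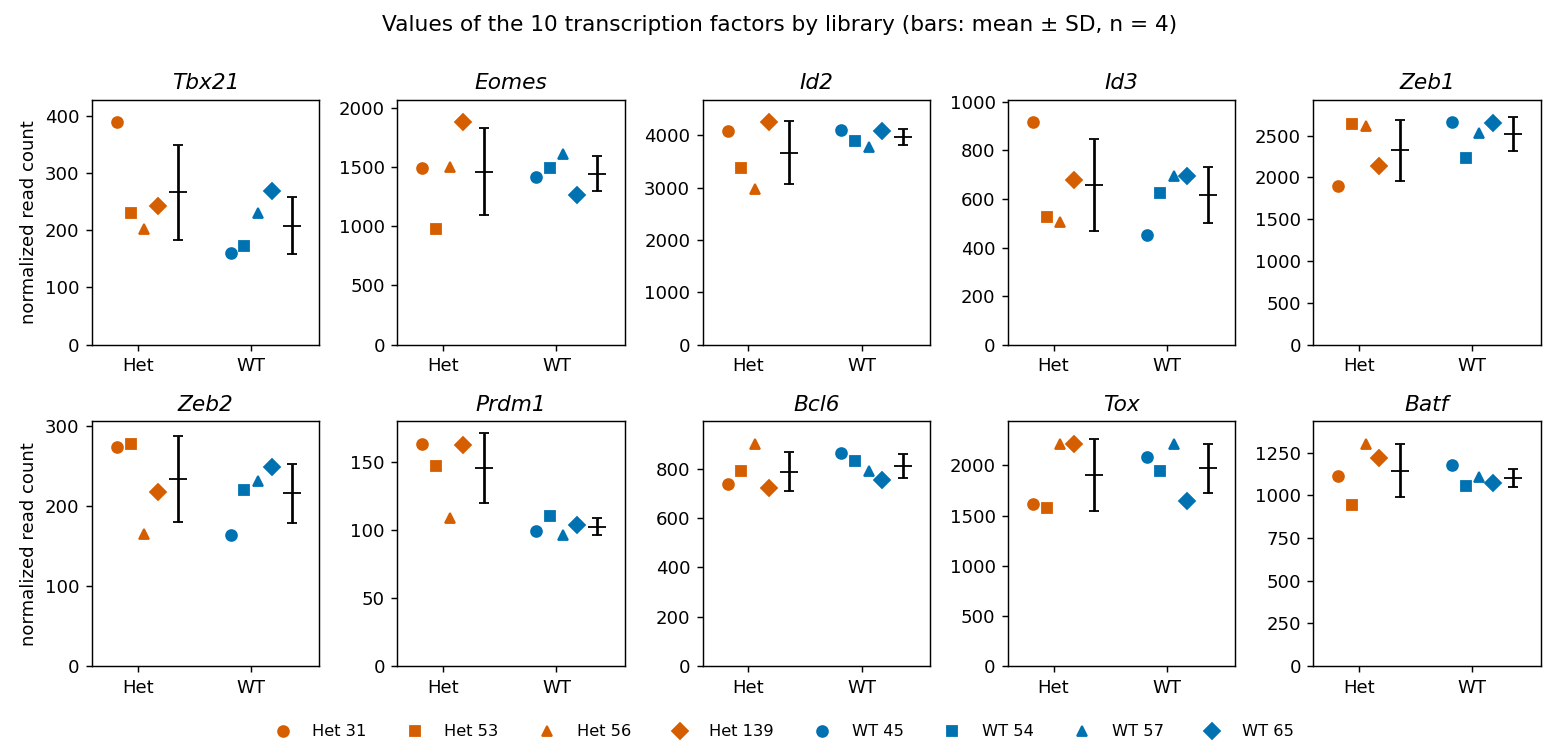
Normalized read counts of the 10 factors in each library, Het at the left and WT at the right of each panel (points: libraries; bars: mean ± SD, n = 4). The genotypes overlap in every panel, and Prdm1 is the one in which 3 Het libraries, at 147.5 to 163.9, stand above all 4 WT libraries, at 96.8 to 110.7.

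Id2, which binds E proteins in effector and NK cells, was even across the WT libraries and lower in 2 of the Het libraries. It had 4077.9, 3368.9, 2977.5 and 4253.4 normalized read counts in Het 31, 53, 56 and 139, against 4099.9, 3889.8, 3781.2 and 4094.9 in WT 45, 54, 57 and 65. Het 53 and 56 were below every WT library, and Het 139 was above them all. The means were 3669 ± 599 in Het and 3966 ± 158 in WT (SD, n = 4 each), and the log2 difference was -0.13 (95% interval -0.38 to 0.13, SE 0.12, exact permutation p = 0.371, adjusted p = 0.765 by limma). The difference was -0.03 without Het 56, -0.18 without Het 31, -0.20 without Het 139 and -0.32 without both Het 31 and 139, and it did not pass the limma test there or in any other setting.

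Id3, which marks memory precursors and is also high in naive cells, did not differ between the genotypes beyond its spread. It had 916, 526.6, 503.7 and 678.5 normalized read counts in Het 31, 53, 56 and 139, against 452.8, 626.2, 696.6 and 696.2 in WT 45, 54, 57 and 65. The highest library was Het 31 and the lowest WT 45, with the other 6 libraries between them in no order of genotype. The log2 difference was 0.07 (95% interval -0.40 to 0.53, SE 0.21, exact permutation p = 0.800, adjusted p = 0.937 by limma), and it became -0.11 without Het 31. The log2 ratio of Id2 to Id3 was 2.51 ± 0.24 in Het and 2.70 ± 0.33 in WT (SD, n = 4 each), lowest in Het 31 at 2.15 and highest in WT 45 at 3.18. The difference of -0.19 in this ratio was -0.07 without Het 31 and -0.03 without WT 45.

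The E proteins that Id2 and Id3 bind were present and did not pass the test. Tcf12 (HEB) averaged 5683 ± 163 normalized read counts in Het and 5345 ± 357 in WT, and Tcf3 (E2A) 4408 ± 516 in Het and 4832 ± 494 in WT (SD, n = 4 each). Tcf4 (E2-2), high in plasmacytoid dendritic cells, was at 251 ± 73.1 in Het and 277 ± 36.8 in WT. Their log2 differences were 0.09, -0.13 and -0.19 in that order, with limma adjusted p of 0.758, 0.748 and 0.826. The other Id genes were low, Id1 at 37.5 or less and Id4 at 17.5 or less in every library.

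Zeb1, the zinc finger repressor of memory cells, was far more strongly counted than Zeb2 in these naive cells. Zeb1 had 1896.2, 2636, 2617.9 and 2142 normalized read counts in Het 31, 53, 56 and 139, against 2660.2, 2237.5, 2528.8 and 2653 in WT 45, 54, 57 and 65. Het 31 and 139 were below every WT library and the other 2 Het libraries were among the WT values. The means were 2323 ± 365 in Het and 2520 ± 198 in WT (SD, n = 4 each), with a log2 difference of -0.13 (95% interval -0.39 to 0.14, SE 0.12, exact permutation p = 0.286, adjusted p = 0.770 by limma). It was -0.03 without Het 31 and -0.19 without Het 53.

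Zeb2, the terminal effector member of the pair, had 274.2, 278.3, 165.4 and 217.2 normalized read counts in Het 31, 53, 56 and 139, against 163.4, 220.4, 230.9 and 249.1 in WT 45, 54, 57 and 65. The lowest libraries, Het 56 and WT 45, came 1 from each genotype. The means were 234 ± 53.4 in Het and 216 ± 37.0 in WT (SD, n = 4 each), with a log2 difference of 0.10 (95% interval -0.38 to 0.58, SE 0.22, exact permutation p = 0.629, adjusted p = 0.902 by limma), which became -0.03 without WT 45, 0.01 without Het 31, 0.007 without Het 53 and 0.26 without Het 56. Per kilobase of annotated exon, Zeb1 had a median of 251 and Zeb2 of 11.3 normalized read counts over the 8 libraries. The log2 ratio of Zeb2 to Zeb1 was -2.79, -3.24, -3.98 and -3.30 in Het 31, 53, 56 and 139, against -4.02, -3.34, -3.45 and -3.41 in WT 45, 54, 57 and 65. Het 31, 53 and 139 were above every WT library, and Het 56 was among the lowest with WT 45. The difference of 0.23 between the means was 0.05 without Het 31, 0.07 without WT 45 and 0.45 without Het 56. Annotated genes overlap both, 2 of 3 on the opposite strand at Zeb1 and 4 of 5 at Zeb2, and since the strand setting of the counting is not given in the sources used here, their reads cannot be told apart from those of the ZEB genes. The same limit holds for Eomes, Bcl6 and Tox, each overlapped by 1 annotated gene on the opposite strand.

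Prdm1, which encodes BLIMP-1 and is needed for terminal effector cells and plasma cells, had the largest difference of the 10 and did not pass the test over all genes. It had 163.9, 147.5, 108.8 and 162.8 normalized read counts in Het 31, 53, 56 and 139, against 99.5, 110.7, 96.8 and 103.9 in WT 45, 54, 57 and 65. Het 31, 53 and 139 stood above every WT library, and Het 56 lay within the WT range. The means were 146 ± 25.7 in Het and 103 ± 6.07 in WT (SD, n = 4 each), a ratio of 1.42. The log2 difference was 0.48 (SE 0.21, 95% interval 0.03 to 0.94, limma unadjusted p = 0.0389, adjusted p = 0.587, exact permutation p = 0.0571, where 4 against 4 libraries cannot go below 0.0286).

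The reads behind Prdm1 were few. At its level the number of different values, a lower estimate of the reads, was 192, 151, 80 and 135 in Het 31, 53, 56 and 139, against 106, 136, 109 and 133 in WT 45, 54, 57 and 65. Since the reads are estimated low, the counting error is at most 7.20% to 11.2% in Het and 8.60% to 9.70% in WT libraries, PCR copies aside. The coefficient of variation between libraries was 17.7% in Het and 5.91% in WT, so the WT libraries lay closer together than that upper limit. The log2 difference ranged from 0.42 to 0.62 when any 1 library was left out and was 0.30 without Het 31 and 139. The adjusted p was at least 0.203 in all settings tried.

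Bcl6, which BLIMP-1 represses in B cells and T cells and which favours memory, had the smallest spread of the 10 among the Het libraries. It had 739.7, 790.6, 902 and 722.7 normalized read counts in Het 31, 53, 56 and 139, against 865.1, 832.1, 792.2 and 754.5 in WT 45, 54, 57 and 65. Het 56 was the highest library and Het 139 and 31 the lowest. The means were 789 ± 80.8 in Het and 811 ± 48.0 in WT (SD, n = 4 each), with a log2 difference of -0.04 (95% interval -0.29 to 0.20, SE 0.11, exact permutation p = 0.571, adjusted p = 0.917 by limma). It was -0.11 without Het 56 and between -0.0034 and -0.0146 without Het 31, Het 139 or WT 45. The log2 ratio of Prdm1 to Bcl6 was -2.17, -2.41, -3.04 and -2.14 in Het 31, 53, 56 and 139, against -3.11, -2.90, -3.02 and -2.85 in WT 45, 54, 57 and 65. Again Het 56 sat with the WT libraries and the other 3 Het libraries above them. The means were -2.44 ± 0.42 in Het and -2.97 ± 0.12 in WT, a difference of 0.53, described here without a test.

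**Figure D3:**
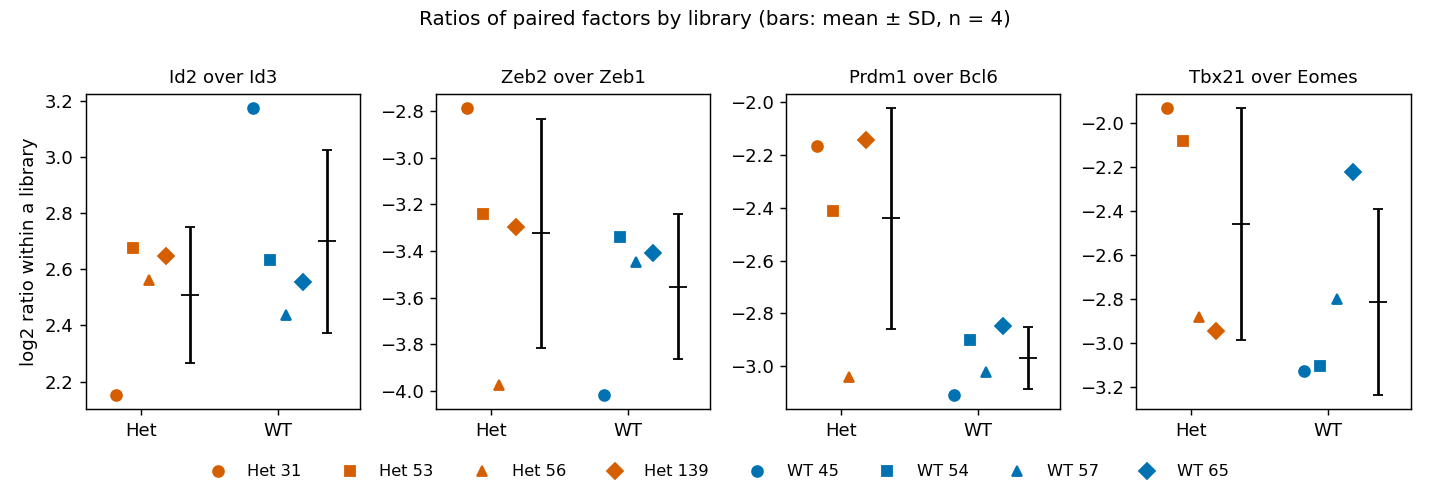
Log2 ratio of paired factors within each library, Het at the left and WT at the right of each panel (points: libraries; bars: mean ± SD, n = 4; each panel has its own scale). In Prdm1 over Bcl6 and in Zeb2 over Zeb1, 3 Het libraries lie above all WT libraries and Het 56 does not, and WT 45 is far below the other WT libraries in Zeb2 over Zeb1, at -4.02.

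Tox, the factor of exhausted T cells, was high in some and low in other libraries of both genotypes. It had 1614.7, 1571.4, 2211 and 2216.5 normalized read counts in Het 31, 53, 56 and 139, against 2081.5, 1948.2, 2217.1 and 1644.6 in WT 45, 54, 57 and 65. The means were 1903 ± 359 in Het and 1973 ± 245 in WT (SD, n = 4 each), with a log2 difference of -0.06 (95% interval -0.38 to 0.26, SE 0.14, exact permutation p = 0.771, adjusted p = 0.911 by limma). The value of WT 65 was close to those of Het 31 and 53. The difference was 0.01 without Het 31, 0.02 without Het 53 and -0.15 without WT 65.

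Batf, the AP-1 family factor of early effector cells, had 1114.9, 944.2, 1303.1 and 1216.4 normalized read counts in Het 31, 53, 56 and 139, against 1176, 1052.6, 1105.9 and 1073.7 in WT 45, 54, 57 and 65. The WT libraries lay inside the range of the Het libraries, with Het 53 lowest and Het 56 highest. The means were 1145 ± 154 in Het and 1102 ± 54.0 in WT (SD, n = 4 each), with a log2 difference of 0.05 (95% interval -0.21 to 0.30, SE 0.11, exact permutation p = 0.686, adjusted p = 0.917 by limma). It was -0.02 without Het 56 and 0.13 without Het 53. Irf4, which joins BATF and JUN on DNA, was at 527 ± 126 in Het and 525 ± 45.7 in WT (log2 difference -0.02, limma adjusted p = 0.973). Junb, the most strongly counted JUN gene, was at 51358 ± 12680 in Het and 48265 ± 6065 in WT (0.06, adjusted p = 0.927 by limma).

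Compared per kilobase of annotated exon (GENCODE M21), the 10 factors covered a wide range of levels in these naive cells. Id2 had a median of 1634 normalized read counts per kilobase over the 8 libraries and Batf 790, and neither range overlapped that of the next factor. Id3 (364) and Eomes (359) were indistinguishable, each above the other in 4 of 8 libraries. Tox (265) and Zeb1 (251) followed with overlapping ranges, then Bcl6 (118) and Tbx21 (92.5), which overlapped as well. Prdm1 (19.7) and Zeb2 (11.3) were lowest, and every library had Prdm1 above Zeb2 on this scale. That order rests on the length used, all annotated exons together, which was 5579 bases for Prdm1 and 19942 for Zeb2. Before division by length, every library had more normalized read counts for Zeb2 than for Prdm1. The gene models are later than the mm9 build named in the submitters' notes, so these levels are approximate.

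The spread between libraries was larger in Het than in WT for all 10 factors. The SD of the log2 values over 4 libraries was 0.39 in Het and 0.15 in WT for Eomes, 0.24 and 0.06 for Id2 in that order of genotypes, and 0.20 and 0.07 for Batf. The median ratio of the Het SD to the WT SD was 1.83 over the 10 factors. A larger SD in Het was common among all genes: it was found in 66.6% of the 12048 tested genes, with a median ratio of 1.28, and in 71.9% of the 9538 genes with a mean of at least 100, with a median ratio of 1.35. Without Het 31 the count was 8 of 10 (Tbx21 and Id3 turned), and without Het 56 it was 8 of 10 (Zeb2 and Bcl6 turned). Genes above 0 were fewer in Het libraries than in WT libraries, and the part of depth in the spread was not tested.

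**Figure D4:**
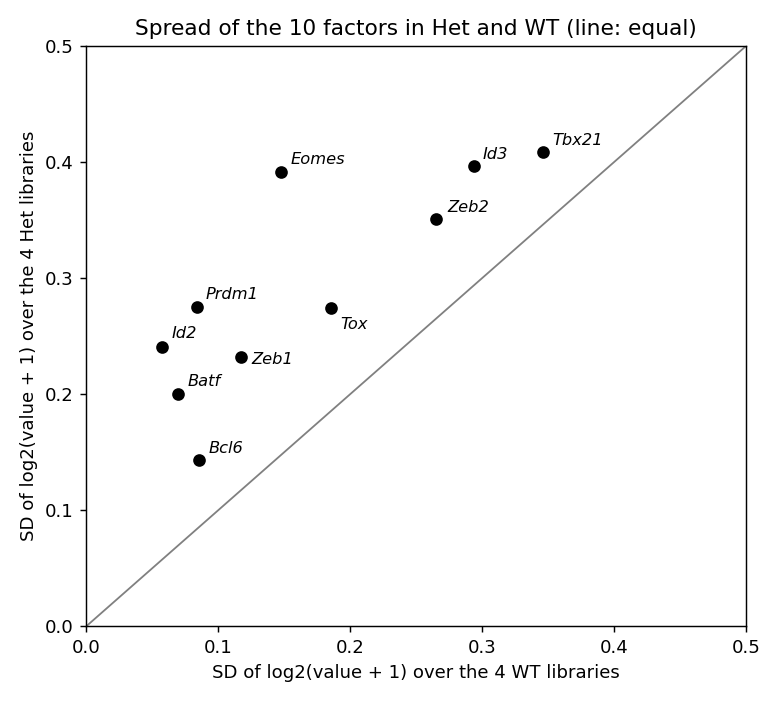
SD of log2(value + 1) over the 4 Het libraries (vertical axis) and over the 4 WT libraries (horizontal axis) for each factor, with the line of equality. All 10 points lie above the line, Eomes, Id2, Prdm1 and Batf farthest from it in proportion.

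Markers of NK cells, which have high T-bet and Eomes, and of B cells differed between libraries along with some of the factors. Of all tested genes, 52.0% were higher in Het, and 3.79% were higher at an unadjusted limma p under 0.05. Of 14 NK markers, 13 were tested and all 13 were higher in Het (median log2 difference 1.01), 0 past the limma test and 4 at an unadjusted p under 0.05. Their summed level was 7603, 3774, 1414 and 2794 normalized read counts in Het 31, 53, 56 and 139, against 935, 2296, 1752 and 2836 in WT 45, 54, 57 and 65. The highest sum and the highest Tbx21 and Id3 were all in Het 31, and the lowest sum and the lowest Tbx21, Id3 and Zeb2 were all in WT 45. Eomes did not have this order, with 1488.9 in Het 31 and 1414.8 in WT 45, both near its mean over the 8 libraries. Ncr1, the NK receptor NKp46, had 103.3 to 532.6 in Het and 74.8 to 180.2 in WT libraries, so it was at 0 in no library. Klra4 alone among the markers was listed at 0, in all 8 libraries. Klrk1, Cd244 and Gzma of this list are also known from activated CD8 T cells, and Gzma is in the T-bet and Eomes target list too.

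The summed B cell markers lay between 9086 and 47942 in Het and between 7814 and 21066 in WT libraries, with 14 of 14 genes higher in Het (median 0.53), 0 past the limma test, 0 at an unadjusted p under 0.05 and none at 0 in any library. The summed plasma cell markers, from cells known for high Prdm1, were 11112, 9040, 4626 and 6938 in Het 31, 53, 56 and 139, against 6580.5, 5998, 4025 and 3132 in WT 45, 54, 57 and 65. Of 5 tested plasma cell genes 4 were higher in Het (median 0.61), with 0 past the limma test, 1 at an unadjusted p under 0.05 and none at 0. Het 56 was the lowest Het library in the plasma cell, NK and B cell sums and in Prdm1, although within WT the plasma cell sum did not order the libraries as Prdm1 did. The summed myeloid markers were 8841 to 16205 in Het and 8806 to 11420 in WT, with 13 of 14 genes higher in Het (median 0.37, 0 past the limma test, 1 at an unadjusted p under 0.05) and none at 0. The part of these cells in the levels of the factors was not tested, and in bulk RNA more cells of a type and more RNA per cell cannot be told apart.

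**Figure D5:**
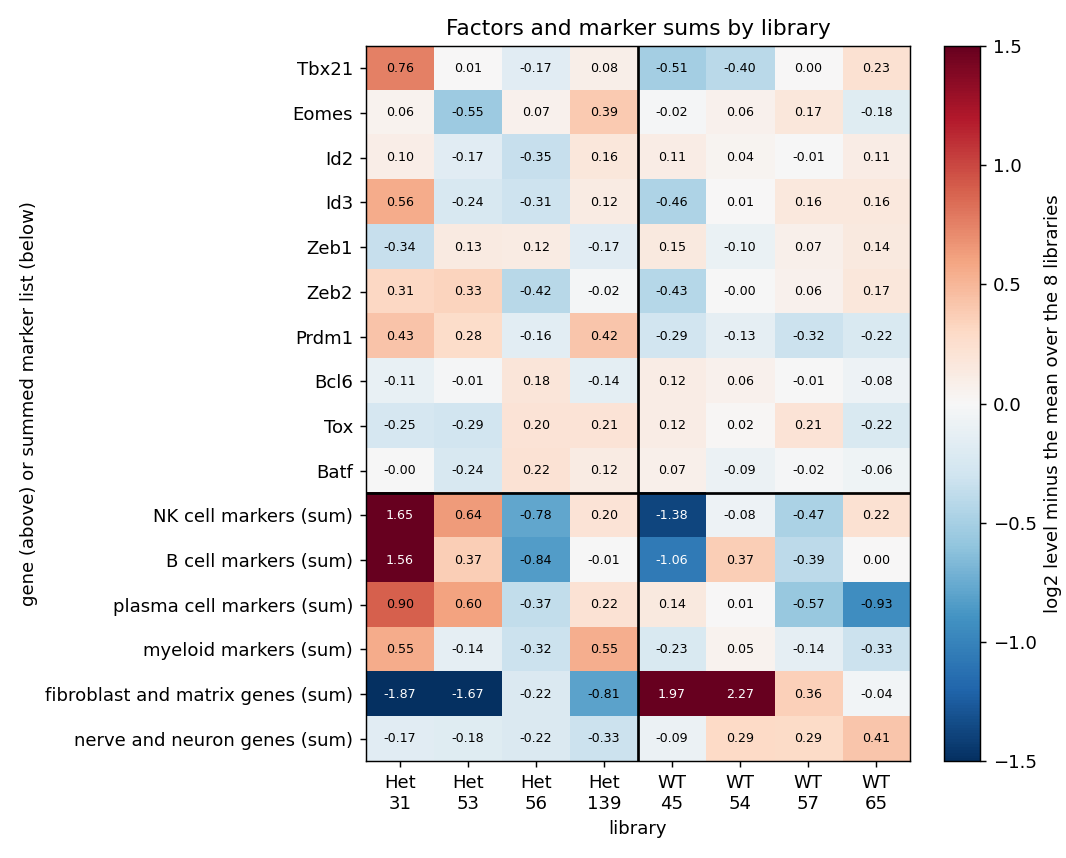
Level of each factor (log2(value + 1), upper rows) and of each summed marker list (log2 of the sum, lower rows) in each library, centred on its mean over the 8 libraries (Het left of the line, WT right; red above and blue below the mean, with the colour saturating at 1.5). Het 31 is high in Tbx21, at 0.76, in Id3, at 0.56, and in NK and B cell markers, at 1.65 and 1.56, and WT 45 is low in each of them. The nerve row is a sum that in Het comes mostly from genes of the list that were not called.

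Genes that T-bet and Eomes are known to activate were mostly higher in Het, with no member past the test. Of 18 such genes 15 were higher in Het (median log2 difference 0.88), 4 of them at an unadjusted limma p under 0.05, where 3.79% of all tested genes passed in that direction. Gzmb, the protease granzyme B, had 611.3, 397, 216.1 and 502 normalized read counts in Het 31, 53, 56 and 139, against 113.6, 259.3, 228.8 and 296.3 in WT 45, 54, 57 and 65 (log2 difference 0.93, SE 0.36, limma adjusted p = 0.528). Klrg1, the receptor that marks short-lived effector and mature NK cells, had 167.6, 112.1, 21.7 and 151.3 in the same Het libraries, against 15.7, 20.6, 36.1 and 65.1 in the WT libraries (1.55, SE 0.65, adjusted p = 0.584 by limma). In both genes Het 31, 53 and 139 stood above the WT libraries and Het 56 did not. S1pr5, an egress receptor under T-bet control, was at 177 ± 68.1 in Het and 93.3 ± 45.9 in WT (limma adjusted p = 0.568).

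The 5 targets with the highest counts differed in direction. Nkg7, a protein of cytotoxic granules, was at 9919 ± 1945 in Het and 9064 ± 1220 in WT (log2 difference 0.12, limma adjusted p = 0.812), and Klrd1, the receptor chain CD94, at 4848 ± 1258 in Het and 3781 ± 602 in WT (0.34, adjusted p = 0.653 by limma). Il2rb, the interleukin 15 receptor chain under T-bet and Eomes, was at 7223 ± 1068 in Het and 8145 ± 913 in WT (log2 difference -0.18, limma adjusted p = 0.708). Prf1, the pore-forming protein perforin, was at 2870 ± 308 in Het and 3022 ± 312 in WT (-0.07, adjusted p = 0.844 by limma), and Itga4, an integrin and the most strongly counted, had a difference of -0.14. Il2rb, Prf1 and Itga4 were the only genes of the list that were lower in Het, 3 of 18. Cxcr3, a chemokine receptor and direct T-bet target, was at 301 ± 116 in Het and 236 ± 87.9 in WT (0.36, adjusted p = 0.773 by limma).

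Among genes linked to effector cells 15 of 17 were higher in Het (median log2 difference 0.85, 0 past the limma test, 5 higher at an unadjusted p under 0.05), a list that shares 8 genes with the T-bet and Eomes targets. Its member with the next smallest p after Gzmb was Ccr2, a chemokine receptor, at 196 ± 106 in Het and 79.7 ± 49.8 in WT (1.42, limma adjusted p = 0.535). Among genes linked to memory cells 13 of 18 were higher (median 0.09, 0 past the limma test, 2 higher at an unadjusted p under 0.05). Beside both lists, 52.0% of all tested genes were higher in Het, and 3.79% were higher at an unadjusted limma p under 0.05. Il18rap, a chain of the interleukin 18 receptor, was at 356.5, 246.7, 192.7 and 297.8 in Het 31, 53, 56 and 139, against 110.3, 94.4, 139.5 and 210.8 in WT 45, 54, 57 and 65 (1.005, SE 0.28, limma adjusted p = 0.250). Ly6c1, a surface protein of memory and effector cells, was at 60.9 to 110.4 in Het and 22.5 to 48.6 in WT libraries (1.07, SE 0.34, limma adjusted p = 0.376). Among the 18 memory-linked genes it alone had every Het library above every WT library, as 2.13% of all tested genes did.

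Of 21 cofactors of the 10 factors tested, 13 were lower and 8 higher in Het (median log2 difference -0.10), where 52.0% of all tested genes were higher. Of the 21, 0 were past the limma threshold and 1 was lower at an unadjusted p under 0.05, where 4.40% of all tested genes were. Runx3, which works with T-bet and Eomes on cytotoxic genes, had 3473.9, 4441, 7396.5 and 4297.6 normalized read counts in Het 31, 53, 56 and 139, against 7449, 5797.8, 7275.7 and 5137.1 in WT 45, 54, 57 and 65 (log2 difference -0.43, SE 0.21, limma adjusted p = 0.646). It was lowest in Het 31, and its value in Het 56 lay within the WT range.

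Relatives of the factors by family did not pass either: of 20 relatives and E proteins 12 were tested, with 3 higher and 9 lower in Het (median log2 difference -0.16, 0 past the limma test, 1 lower at an unadjusted p under 0.05). Beside this list and the next, 52.0% of all tested genes were higher in Het and 0.515% were called. At an unadjusted limma p under 0.05, 3.79% were higher and 4.40% lower. Tox4, a broadly expressed relative of Tox, was at 3068 ± 320 in Het and 3233 ± 284 in WT, while Tox2 was at 19.7 or less in every library. Tbx6, a T-box factor known from mesoderm, had 305, 576.4, 824 and 356.6 in Het 31, 53, 56 and 139, against 803.3, 764.8, 843.8 and 613.1 in WT 45, 54, 57 and 65 (-0.65, SE 0.28, limma adjusted p = 0.584). Batf2, Batf3, Tbr1, Tbx1, Tox3 and Id4 were listed at 0 in at least 1 library. Of 17 further factors of CD8 differentiation, 6 were higher and 11 lower (median -0.05), 0 past the limma test and 0 at an unadjusted p under 0.05, among them Foxo1 at 12203 ± 860 in Het and 10958 ± 791 in WT (0.16, limma adjusted p = 0.662) and Bach2, which holds back effector genes, at 4967 ± 589 in Het and 5429 ± 515 in WT (-0.13, adjusted p = 0.751 by limma).

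The genes whose pattern over the 8 libraries was most like that of the 3 most variable factors were sought among the 10225 tested genes with a mean of at least 50. Likeness was the root mean square difference of centred log2 values. For Tbx21 they were Rpl29, a ribosomal protein (0.11), Ndufa11, of respiratory complex I (0.12), and 1110001J03Rik (0.13), against a root mean square of 0.37 for Tbx21 itself. For Id3 they were S1pr4 (0.09), a sphingosine phosphate receptor of lymphocytes, Srebf1 (0.10), of lipid synthesis, and Pih1d1 (0.11), against 0.30 for Id3 itself. For Prdm1 they were Mdfic (0.08), Pion (0.09) and 1810035L17Rik (0.10), against 0.30 for Prdm1 itself.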

How the data were processed

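The deposited values are normalized read counts, a linear signal given for 22609 genes in 8 libraries. CASAVA, TopHat2, HTSeq, DESeq and mm9 are named without role or version, per the submitters' processing notes. The sorted deposited values agreed within 2% between libraries at all 9513 ranks whose mean reached 100, as quantile normalization gives. Such scaling hides differences in total RNA and allows no count test.

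Genes with a mean of at least 10 (12048) were tested on log2(value + 1) with moderated tests (2-sided) in limma (3.58.1, under R 4.3.3) that let the prior variance follow the mean. Adjustment was Benjamini-Hochberg over all tested genes, with a threshold of 0.05. The script was tested on simulated data. Fold changes on this scale understate those of low genes. For each factor, an exact permutation p (2-sided) used the 70 ways of assigning 8 libraries.

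The 10 members, the 16 gene lists (204 of 207 genes found, older symbols matched through RefSeq synonyms) and the alternatives were chosen with earlier results of these data known. Named were the members, the 3 genes of smallest p and any called gene of each list, the most abundant markers, and the genes most like 3 members. Some genes this rule takes are not reported here, and genes outside it, such as Irf4 or the E proteins, were named for their role after their values had been seen. Alternatives were the pseudocount (0.5 or 5), the filter (above 0, or 50), size factors, no trend, robust fitting, array weights and leaving out libraries. The comparisons of spread under other settings and of ratios were added after the data were seen. Sequences are from RefSeq, GRCm38.p6; lengths from GENCODE M21.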

Additional observations from a re-analysis of the deposited data

Results flagged for a closer look

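A library was singled out when it lay so far from the other 3 of its genotype that the gap to the nearest filled almost all of their range. About 1 group in 20 meets this by chance. Of 170 groups screened, 14 (8.24%) were, 0 of them among the 20 groups of the 10 factors themselves. In the ratio of Zeb2 to Zeb1, WT 45 was at -4.02 on the log2 scale (other WT libraries -3.45 to -3.34).

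Among summed lists, the further CD8 differentiation factors were at 172335 in WT 57 (others 153609 to 156006), the T-bet and Eomes targets at 51331 in WT 65 (others 45082 to 46036), the memory-linked genes at 141412 in WT 45 (others 145876 to 146751) and the innate T cell markers at 99.3 in Het 56 (other Het libraries 74.7 to 76.9). Among NK markers, WT 65 had Itga2 at 53.4 (others 12.2 to 19.2) and Styk1 at 16.6 (others 2.2 to 4.6), and its Cd40lg, of activated CD4 T cells, was at 157.9 (others 27.2 to 34.6). WT 54 had Lyz2 at 1133 (others 578 to 664), Siglech at 17.1 (others 5.8 to 6.8) and Cd3g at 18659 (others 15715 to 16088). In Het 56 the nerve genes S100b, Mtap1b and Kcna1 were at 15.0, 76.1 and 7.7 (other Het libraries 0.9 to 3.2, 2.4 to 7.9, and listed at 0).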

How the results depend on the processing

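None of the 10 factors passed the limma test in any of the 19 settings tried, and Prdm1, Tbx21 and Id2 kept their direction in all 19. The number of genes called over the whole table was 62. It was 123 with no filter, 14 with a filter at a mean of 50, 11 to 91 with 1 library left out, 3 without Het 139 and 31, 3 without WT 45 and 54, and 121 without Het 56 and WT 45. With 1 library left out, the log2 difference ranged from -0.11 to 0.18 for Id3, -0.15 to 0.16 for Eomes, -0.147 to 0.0232 for Tox, -0.02 to 0.13 for Batf, -0.0269 to 0.256 for Zeb2, -0.193 to -0.0346 for Zeb1, -0.11 to -0.0034 for Bcl6, -0.202 to -0.0307 for Id2, 0.42 to 0.62 for Prdm1 and 0.14 to 0.47 for Tbx21. Without Het 139 and 31 it was -0.24 for Id3, 0.0635 for Zeb1 and 0.0602 for Bcl6, and without WT 45 and 54 it was -0.13 for Id3, -0.0674 for Zeb2 and 0.0234 for Bcl6. The 6 nerve genes called became 3 to 8 with 1 library left out, 1 without Het 139 and 31 or without WT 45 and 54, and 10 without Het 56 and WT 45. The cause of these changes was not tested. With 1 library left out, the difference in log2 ratio ranged from 0.43 to 0.73 for Prdm1 over Bcl6, 0.0487 to 0.446 for Zeb2 over Zeb1, 0.18 to 0.55 for Tbx21 over Eomes and -0.28 to -0.0332 for Id2 over Id3. No paired analysis was possible because the genotypes share no replicate number. Prdm1, Tbx21 and Zeb2 rest on the fewest reads of the factors, by the number of different values. The part of depth in their differences was not tested.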

Other observations

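Dendritic cell markers were higher in Het in 6 of 9 tested genes (median log2 difference 0.28), with Xcr1, of cross-presenting dendritic cells, at 17.9 ± 16.5 in Het and 3.23 ± 2.81 in WT (SD, n = 4 each, limma adjusted p = 0.646). Markers of CD4 and regulatory T cells were higher in 7 of 9 (median 0.14), with Foxp3 at 158 ± 19.4 in Het and 135 ± 59.4 in WT (limma adjusted p = 0.767) and Cd40lg at 123 ± 51.5 in Het and 62.0 ± 64.0 in WT (limma adjusted p = 0.601). Of the innate T cell list 4 of 5 genes found were tested, 3 of them higher (median 0.29). No gene of these lists passed the limma test, and 1, Cd40lg, had an unadjusted p under 0.05. Among all tested genes, 52.0% were higher in Het, 3.79% were higher at an unadjusted limma p under 0.05 and 0.515% were called. Naive CD8 T cell markers split into 10 higher and 6 lower in Het (median 0.10, 0 past the limma test, 0 at an unadjusted p under 0.05).

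The log2 ratio of Prdm1 to Bcl6 differed by 0.43 to 0.73 between Het and WT when any 1 library was left out, smallest without Het 139 and largest without Het 56.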
